A study of Rattus norvegicus with 10 samples.

Results

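The proteases that cut prohormones and other precursor proteins were followed in splenic M2 macrophages of rats with glomerulonephritis. The genes were a fixed list of 7, namely the convertases *Pcsk1*, *Pcsk5*, *Pcsk7*, *Furin* and *Mbtps1* and the carboxypeptidases *Cpd* and *Cpe*. Of these, 5 of the 9003 genes in the table were analysed (*Pcsk1*, *Pcsk7*, *Furin*, *Mbtps1* and *Cpd*), and all 5 had passed the authors' removal of weakly expressed genes. *Pcsk5* and *Cpe* were not analysed here. *Pcsk1* was chosen by its own normalised values, which rise from control to nephritis and on to EV+ macrophages in these same libraries, so they are described without a test. The other 4 were listed for what they do and were tested in a fit of the whole table.

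The M2 macrophages were sorted by flow cytometry from the spleens of female WKY /Ncrj rats and sequenced in 10 libraries. Control macrophages came from healthy rats (n = 2), and GN macrophages from rats made nephritic with the monoclonal antibody TF78 against the glomerular basement membrane and given no cells (n = 2). EV+ and EV− macrophages (n = 3 each) came from nephritic rats that had also received human adipose-derived mesenchymal stem cells (ASCs) stained with the membrane dye DiD. EV+ macrophages carried the dye and EV− macrophages did not, so both had been in a treated animal, and the dye marks any ASC membrane that a macrophage took up. The study's methods give a range of ages for its nephritis model, but not the age or number of the rats behind each library.

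Proprotein convertases are serine proteases related to bacterial subtilisin that cut precursors after basic residues as they pass through the secretory pathway. Furin and PC7, the product of *Pcsk7*, work in the trans-Golgi network, at the cell surface and in endosomes of most cells. PC1, the product of *Pcsk1*, is best known from the secretory granules of endocrine cells and neurons, where it cuts precursors such as proopiomelanocortin and proinsulin, and it has also been described in macrophages. Site-1 protease, the product of *Mbtps1*, cuts membrane-bound transcription factors of sterol and stress responses in the Golgi. Carboxypeptidases D and E, encoded by *Cpd* and *Cpe*, then trim the basic residues that the convertases leave behind.

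The libraries held between 19270515 and 26617093 reads on genes, and values are given as CPM, the counts scaled to a common library size and normalised by the trimmed mean of M-values (TMM). The lowest count of any of the 5 genes in any library was 1187 reads, for *Cpd* in EV− replicate 1, so counting error alone was at most 2.9% of a value. Of the macrophage markers (12 of 15 analysed), *Lyz2* was at no less than 15325 CPM and *Csf1r* at no less than 5800.4 CPM in every library. The complement genes *C1qa*, *C1qb* and *C1qc* on that list were only between 1.75 and 11.2 CPM. *Cd163* and *Mrc1*, commonly used markers of M2 macrophages and also on that list, each reached no more than 1.81 CPM. The summed level of NK and T cell markers (10 of 12 analysed) was 657, 98.5 and 48.3 CPM in EV− replicates 1, 2 and 3. It was 17.9 to 35.9 CPM in the control, GN and EV+ libraries, so every EV− library held more of this RNA. For each member, the difference between EV+ and EV− is also given without EV− replicate 1. That does not remove the smaller excess in EV− replicates 2 and 3.

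*Pcsk1* was higher in GN than in control macrophages and highest in EV+ macrophages. It had 119 and 128 CPM in the control libraries and 162 and 189 CPM in the GN libraries. The EV− libraries had 207, 216 and 221 CPM, and the EV+ libraries 250.2, 261 and 234 CPM. The groups thus stood in the order control, GN, EV− and EV+, and no library of a group overlapped with one of its neighbour in that order. Such a gap in the same direction was found for 21.9% of the 9003 genes from control to GN, 12.6% from GN to EV− and 4.25% from EV− to EV+.

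Mean *Pcsk1* was 123 ± 6.63 CPM (SD over 2 libraries) for control and 176 ± 18.4 CPM (2 libraries) for GN macrophages. For EV− it was 215 ± 6.83 CPM and for EV+ 248 ± 13.7 CPM (3 libraries each). On the log2(CPM + 1) scale, the difference was 0.50 (SE 0.094) between GN and control, and 95.4% of all genes had a lower difference. It was 0.50 (SE 0.085) between EV+ and GN, above 98.5% of genes, and 0.29 (SE 0.085) between EV− and GN, above 91.7% of genes. From control to EV+ the mean differed 2.0-fold, a log2 difference of 1.0 (SE 0.085). The GN libraries were the most spread for this gene, and without GN replicate 1 the difference was 0.61 between GN and control and 0.39 between EV+ and GN. Without GN replicate 2 these were 0.40 and 0.61.

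**Figure D1:**
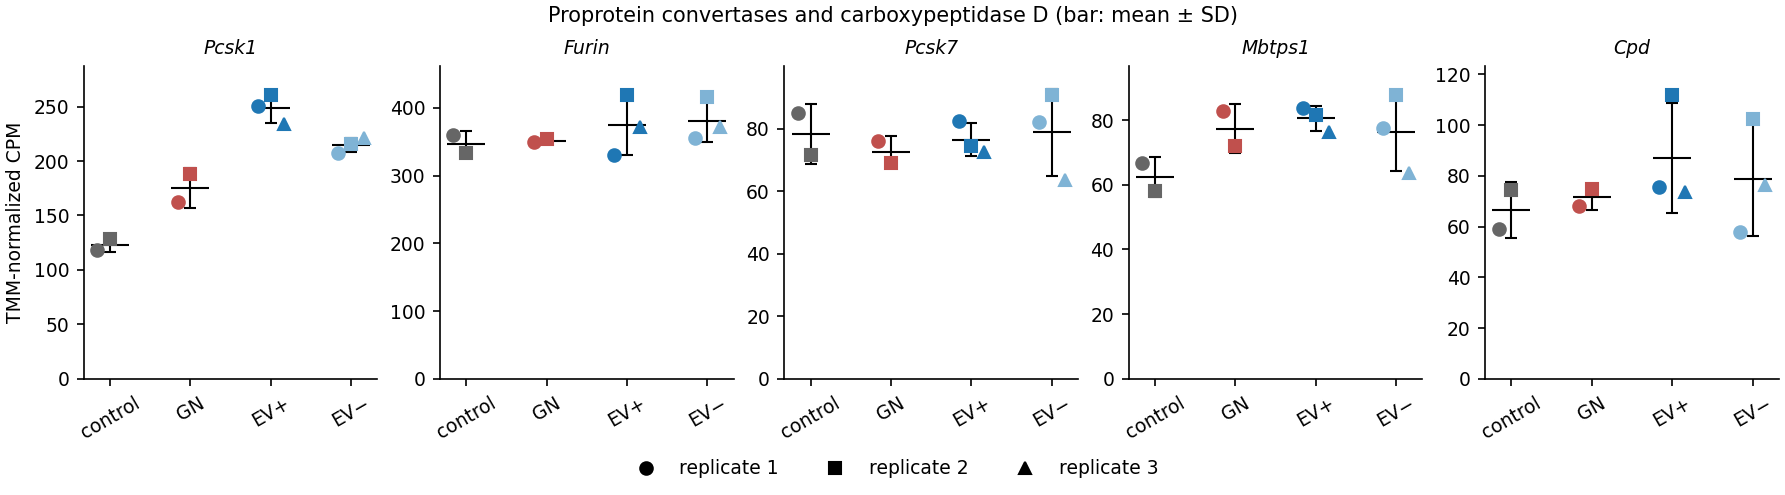
TMM-normalized CPM (vertical axes, each from 0) of the 5 genes in control, GN, EV+ and EV− macrophages. Points are libraries, shaped by replicate number, and horizontal bars with whiskers are the group mean ± SD. *Pcsk1* goes from 119 and 128 CPM in control to between 234 and 261 CPM in EV+, while the groups overlap for *Pcsk7* and *Cpd*, and *Cpd* is highest in replicate 2 of both EV+ and EV−.

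Across genes, an EV+ library deviated from its group mean together with the EV− library that shares its number, so these were also compared pair by pair. *Pcsk1* in EV+ was 1.21, 1.21 and 1.06 times its level in the EV− library of the same number in replicates 1, 2 and 3. All 3 ratios were above 1, as they were for 13.7% of the 9003 genes. The log2 difference of the group means was 0.21 (SE 0.076), or 0.18 without EV− replicate 1.

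Markers of macrophages and of neutrophils moved with *Pcsk1*. The summed macrophage markers (12 of 15 analysed) were between 25327 and 25676 CPM in control and between 29239 and 31441 CPM in all other libraries. The summed neutrophil markers (5 of 8 analysed) were 549.7 to 555 CPM in control, 609 to 689 CPM in GN, 699 to 718 CPM in EV+ and 654 to 743 CPM in EV− macrophages. Almost all of this sum was *Csf3r*, a receptor that monocytes also express, at 528 to 723 CPM, whereas *S100a8* and *S100a9* did not exceed 3.39 and 19 CPM. In bulk samples, a change in the mixture of cells and a change of RNA per cell cannot be told apart. The part of these markers in the course of *Pcsk1* was not tested.

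No other member passed an FDR of 0.1 in any of the 6 comparisons between groups (limma on log2(CPM + 1), Benjamini-Hochberg over 9003 genes). Of the 4 tested genes, 0 were called between GN and control, where 1.75% of all genes were, 0 between EV+ and control (3.63%), 0 between EV− and control (2.84%), 0 between EV+ and GN (0.122%), 0 between EV− and GN (0.378%) and 0 between EV+ and EV− (0.0222%). At such background shares, a count of 0 among 4 genes sets them apart from no other gene. An unadjusted p under 0.05 was reached by *Mbtps1* alone, against control in GN (where 10.4% of all genes reached it), in EV+ (15.0%) and in EV− (13.1%). The quasi-likelihood test of edgeR and DESeq2 on the recovered reads also called 0 of the 4.

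*Furin*, the most widely used convertase of the secretory pathway, showed little difference between groups. Its values were 361 and 334 CPM in control, 349 and 354 CPM in GN, 331, 419 and 372 CPM in EV+ and 356, 416 and 372 CPM in EV− libraries. Control, GN and EV+ libraries overlapped, while the EV− libraries all lay above both GN libraries by a small margin, as 12.6% of all genes did. The log2 difference was 0.02 between GN and control (95% interval -0.21 to 0.25) and -0.03 between EV+ and EV− (-0.22 to 0.16), or -0.08 without EV− replicate 1. RefSeq's rat annotation places an uncharacterised locus over *Furin*, and the library kit does not mark strand, so reads of both could not be separated where they overlap.

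*Pcsk7* encodes PC7, the convertase least related to the others of the basic-residue family. It had 84.9 and 71.4 CPM in control, 76 and 68.9 CPM in GN, 82.4, 74.5 and 72.4 CPM in EV+ and 82.1, 90.8 and 63.6 CPM in EV− libraries. All groups overlapped, and the EV− libraries spanned a wider range than all others together. The log2 difference was -0.10 between GN and control (95% interval -0.42 to 0.21), 0.08 between EV+ and GN (-0.21 to 0.36) and -0.03 between EV+ and EV− (-0.29 to 0.23), or 0.0054 without EV− replicate 1.

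*Mbtps1* encodes site-1 protease, and its mean was lowest in control. It had 66.8 and 58.1 CPM in control, 82.8 and 72 CPM in GN, 83.8, 81.6 and 76.3 CPM in EV+ and 77.6, 87.9 and 63.7 CPM in EV− libraries. Every GN and EV+ library exceeded both control libraries, as 21.9% and 14.9% of all genes did in these comparisons, while EV− replicate 3 lay between the control libraries. The log2 difference from control was 0.30 in GN (95% interval 0.0077 to 0.60, adjusted p = 0.464 by limma), 0.36 in EV+ (0.09 to 0.63, adjusted p = 0.181) and 0.28 in EV− (0.0070 to 0.55, adjusted p = 0.366). In a fit blocked on the replicate number, the difference between EV+ and control was 0.44 (adjusted p = 0.068 by limma), although control and EV+ libraries of the same number did not deviate together. Without control replicate 2 it was 0.26 (adjusted p = 0.695 by limma). The estimate for EV+ over GN was 0.06 (-0.21 to 0.33), and that for EV+ over EV− was 0.09 (-0.16 to 0.33), or 0.10 without EV− replicate 1.

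*Cpd*, encoding the carboxypeptidase of the trans-Golgi network, had the widest spread relative to its mean of the 5 genes within control, EV+ and EV−, but not within GN. It had 58.9 and 74.2 CPM in control, 68.1 and 75 CPM in GN, 75.7, 112 and 73.5 CPM in EV+ and 57.7, 102 and 76.2 CPM in EV− libraries. Replicate 2 was the highest library of both EV+ and EV−, at 1.29 and 1.30 times the mean of its group. *Furin* was also highest in replicate 2 of both, at 1.12 and 1.09 times the mean of its group. The log2 difference of *Cpd* was 0.36 between EV+ and control (95% interval -0.09 to 0.82), 0.25 between EV+ and GN (-0.20 to 0.70) and 0.15 between EV+ and EV− (-0.25 to 0.56). Its EV+ level was 1.31, 1.09 and 0.964 times the EV− level of the same number, so the 3 pairs did not share a direction. Without replicate 2 of EV+ the difference between EV+ and EV− turned to -0.04, and without EV− replicate 1 to -0.05.

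**Figure D2:**
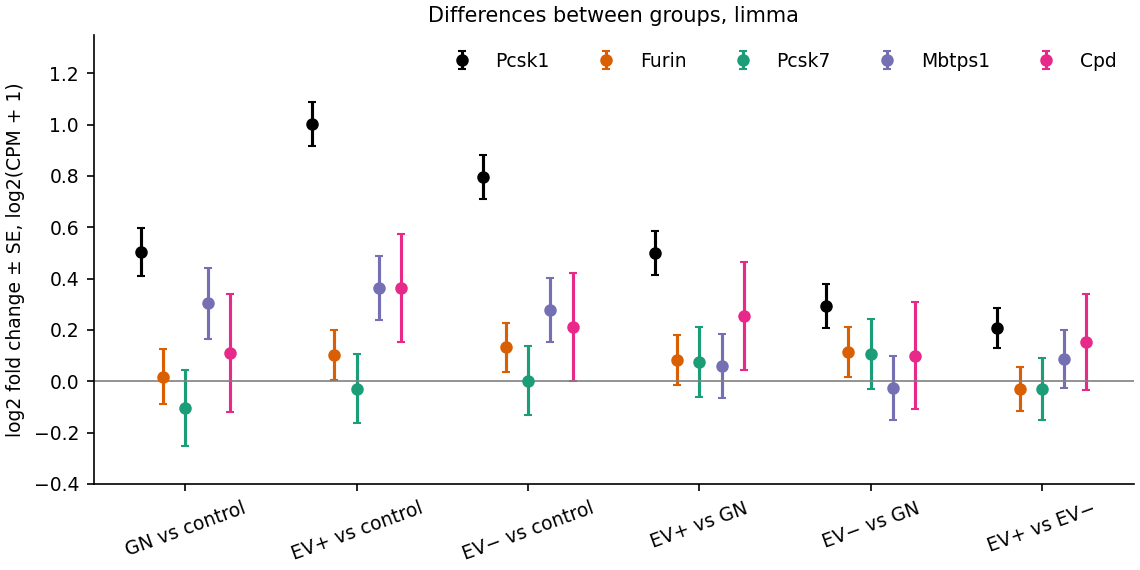
Log2 fold change of the 5 genes (vertical axis, log2(CPM + 1) scale) in the 6 comparisons between groups (horizontal axis), where points are limma estimates and whiskers are ± 1 SE. The estimates for *Pcsk1*, chosen by these values, run from 0.21 between EV+ and EV− to 1.0 between EV+ and control, and those for *Furin* and *Pcsk7* lie within 0.13 of 0.

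The differences between *Pcsk1* and the other members can also be read inside each library, where no scaling between libraries enters. These ratios of reads are not corrected for transcript length, so they compare libraries and not the levels of the genes. Each has *Pcsk1*, chosen by its values in these libraries, as its numerator. The ratios therefore describe that choice again and are no separate support for it. How often ratios of other genes separate the groups was not counted. Per *Furin* read, control macrophages had 0.356 ± 0.038 reads of *Pcsk1* and GN macrophages 0.499 ± 0.048 (SD over 2 libraries each). EV+ macrophages had 0.669 ± 0.076 and EV− macrophages 0.565 ± 0.040 (3 libraries each). The control, GN and EV+ libraries did not overlap in this ratio, whereas the EV− libraries (0.519 to 0.594) overlapped with GN (0.465 to 0.533). Per *Pcsk7* read, control, GN and EV+ again did not overlap, but EV− replicate 3 (3.47) lay within EV+ (3.03 to 3.50). Per *Mbtps1* read, GN (1.96 and 2.62) overlapped with control (1.78 and 2.20), and EV− replicate 3 (3.47) exceeded all EV+ libraries (2.99 to 3.20). As a share of the reads on the 5 genes, *Pcsk1* held 17.2% and 19.2% in control and 22.0% and 24.9% in GN libraries. Its share was 27.5% to 30.4% in EV+ and 23.6% to 27.7% in EV− libraries, so EV− overlapped with GN and with EV+. Against *Cpd*, the ratio was lowest in replicate 2 of both EV+ and EV−, at 2.33 and 2.11, the libraries in which *Cpd* was high. Both lay below the GN libraries (2.39 and 2.51).

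**Figure D3:**
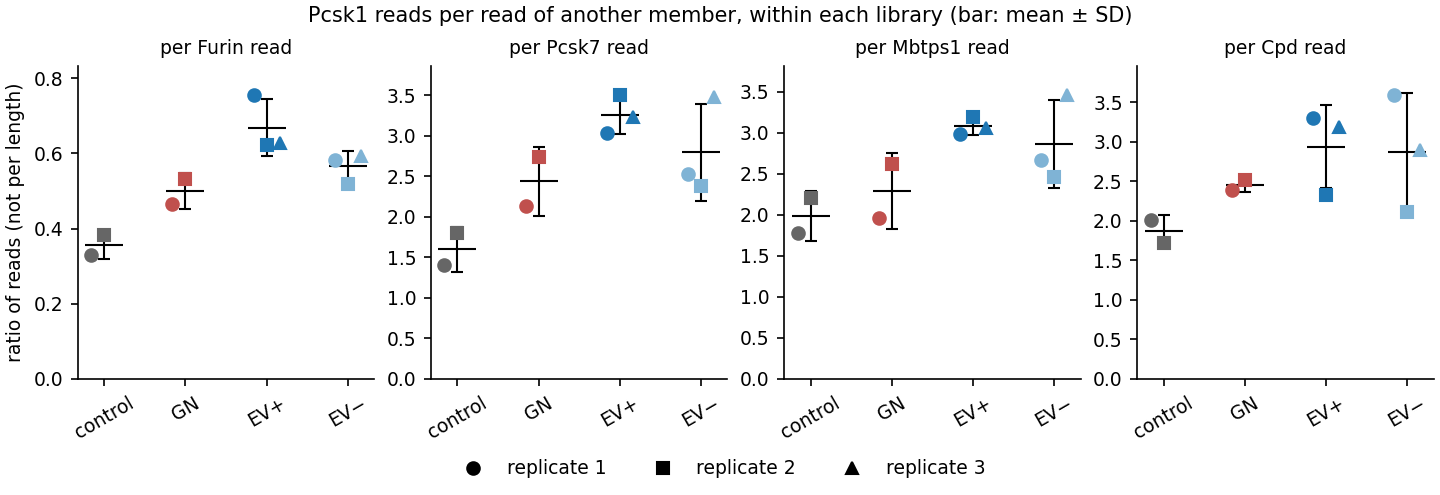
Reads of *Pcsk1* per read of *Furin*, *Pcsk7*, *Mbtps1* or *Cpd* within each library (vertical axes, from 0), by group, with the group mean ± SD as bars and the replicate number as the shape. Per *Furin* read the control libraries lie at 0.329 and 0.383 and the EV+ libraries between 0.622 and 0.756.

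*Pcsk7* and *Mbtps1* moved together within groups, a pattern noticed after the values were seen. Over the 10 libraries, their deviations from the group means on the log2 scale had a Pearson correlation of 0.97. These deviations come from 4 groups of 2 or 3 libraries, and each library contributes its own depth and quality to both genes. The highest library of each group was the same for both genes, namely replicate 1 of control, GN and EV+ and replicate 2 of EV−. Between groups they differed: *Pcsk7* had 1.23 and 1.27 reads per *Mbtps1* read in control, 0.919 and 0.958 in GN, 0.913 to 0.984 in EV+ and 0.998 to 1.06 in EV− libraries. Both control libraries thus lay above all 8 libraries from nephritic rats, and the EV− libraries lay above the GN and EV+ libraries. How many other pairs of genes separate the groups in this way was not counted, so this order is a description. The correlation of 0.97 was the highest of all pairs of members, and the share of all gene pairs that reach it was not counted. For comparison, *Furin* and *Cpd* had a correlation of deviations of 0.72, and *Pcsk1* and *Cpd* had 0.59. *Pcsk1* had one of -0.39 with *Pcsk7* and -0.40 with *Mbtps1*, and the remaining pairs lay between -0.01 and 0.29.

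**Figure D4:**
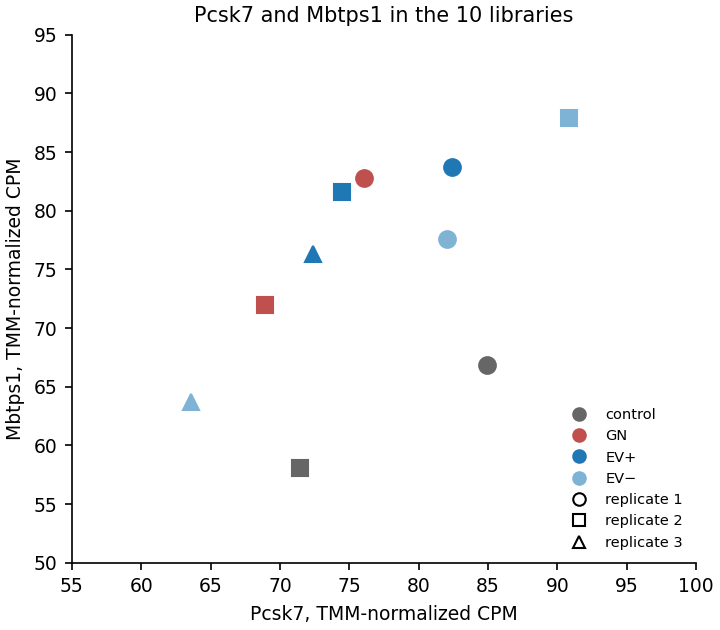
*Mbtps1* (vertical axis) against *Pcsk7* (horizontal axis), both in TMM-normalized CPM on axes that do not start at 0, with 1 point per library, coloured by group and shaped by replicate number. The 2 control libraries have the least *Mbtps1* for their *Pcsk7*, with 1.23 and 1.27 *Pcsk7* reads per *Mbtps1* read.

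Because these 2 genes moved together, the sequence before their start sites is shown, taken from RefSeq on the GRCr8 assembly. Whether the 2 genes share control was not tested. Of the 5 genes analysed, 2 had a promoter entry. The reads had been aligned to rn6, so no coordinate here refers to the reads. Only bases that no annotated gene covers are printed, and capitals mark matches to a GC box (GGGCGG or CCGCCC) or a CCAAT box (CCAAT or ATTGG). For *Pcsk7* this is chr8:55098754-55098820 on the plus strand, the 67 bases up to the start site, beyond which lies the neighbouring gene *Rnf214*. For *Mbtps1* it is chr19:64521439-64521592 on the minus strand, from 250 to 97 bases before the listed start site.
*Pcsk7*: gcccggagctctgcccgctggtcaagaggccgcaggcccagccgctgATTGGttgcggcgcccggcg
*Mbtps1*: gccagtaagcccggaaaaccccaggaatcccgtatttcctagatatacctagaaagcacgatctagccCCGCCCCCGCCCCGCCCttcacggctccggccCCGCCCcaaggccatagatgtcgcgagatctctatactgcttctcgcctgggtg

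The *Pcsk7* stretch held 1 CCAAT box, on the reverse strand, and no GC box. The *Mbtps1* stretch held 4 GC boxes, all on the reverse strand and some of them overlapping, and no CCAAT box. In the same window of all 33469 rat promoters in the table, 11.2% held a CCAAT box at the *Pcsk7* positions and 17.1% a GC box at the *Mbtps1* positions. Neither stretch held an E-box (CACGTG, in 1.9% and 2.95% of promoters) or a cAMP response element (TGACGTCA, in 0.792% and 0.499%). The letters shared by both stretches thus included none of these 4 motifs, and their GC content was 76.1% and 61%.

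The wider pathway was followed in 121 further genes, of which 68 were analysed, namely helpers and inhibitors of convertases, other carboxypeptidases and peptide enzymes, secretory granule genes, substrates of convertases and partners of site-1 protease. The convertases *Pcsk2*, *Pcsk4* and *Pcsk6* were not analysed here, nor were the granins *Chga* and *Chgb*. Between GN and control, 1 of the 68 genes was higher and 2 were lower (4.41%, against 1.75% of all genes). Between EV+ and control, 1 was higher and 1 lower (2.94%, against 3.63%), and between EV− and control 1 was lower (1.47%, against 2.84%). Between EV+ and GN, 1 was higher (1.47%, against 0.122%), and between EV− and GN 1 was lower (1.47%, against 0.378%). Between EV+ and EV− 0 passed by limma (against 0.0222%), with 3 of 68 at an unadjusted p under 0.05, where 4.57% of all genes were, and 1 called by DESeq2. All of the limma calls fell on *Serpinb8*, *Lpl* and *Lipg*, and the paper had already named *Serpinb8* from these libraries.

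*Serpinb8* encodes a serpin that inhibits furin. The paper had already named it among the genes lowered by nephritis in these same libraries, so its calls below are not independent evidence. It had 9.59 and 12.5 CPM in control, 3.87 and 3.05 CPM in GN, 5.47, 4.67 and 4.28 CPM in EV+ and 5.1, 6.22 and 3.54 CPM in EV− libraries. Both control libraries exceeded all 8 libraries from nephritic rats. The share of all genes below control in this way is not given here, so the gap is a description. Its log2 difference from control was -1.43 in GN (SE 0.252, adjusted p = 0.013 by limma), -1.05 in EV+ (SE 0.23, adjusted p = 0.0284) and -1.03 in EV− (SE 0.23, adjusted p = 0.0381). The GN call was lost without control replicate 2 or GN replicate 2 (adjusted p = 0.132 and 0.168 by limma). The EV+ call was lost without control replicate 2 or EV+ replicate 3 (0.295 and 0.116), and the EV− call without either control library or EV− replicate 3 (0.1 to 0.355). The other inhibitors of furin on the list, the interferon-induced *Gbp2* and *Gbp5*, did not pass in any comparison.

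*Lpl* encodes lipoprotein lipase, which convertases can cut and inactivate. It had 40.6 and 36.7 CPM in control, 108 and 76.3 CPM in GN, 66.5, 61.8 and 68.4 CPM in EV+ and 41.2, 41.7 and 38 CPM in EV− libraries. The GN libraries were the highest, the EV+ libraries lay between GN and control, and the EV− libraries overlapped with control. Of all genes, 21.9% had every GN library above both control libraries, and 14.9% had every EV+ library above them. *Lpl* exceeded control by 1.21 on the log2 scale in GN (SE 0.143, adjusted p = 0.00096 by limma) and by 0.75 in EV+ (SE 0.131, adjusted p = 0.0067, or 0.113 without control replicate 2). It was lower in EV− than in GN, with a log2 difference of -1.15 (SE 0.131, adjusted p = 0.00083). EV+ exceeded EV− 1.61, 1.48 and 1.80 times in replicates 1, 2 and 3, a log2 difference of 0.69 (SE 0.117, adjusted p = 0.125 by limma, and 0.073 once blocked on the number). Of all genes, 13.7% were higher in EV+ in all 3 pairs.

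*Lipg* encodes endothelial lipase, a relative of lipoprotein lipase that convertases can also cut. It had 32.1 and 29.8 CPM in control, 15.6 and 18 CPM in GN, 32.7, 28.8 and 27.6 CPM in EV+ and 23.2, 30.3 and 23.4 CPM in EV− libraries. The GN libraries lay below all others, but the share of all genes with such a gap is not given here. Its log2 difference from control was -0.85 in GN (SE 0.158, adjusted p = 0.0179 by limma), a call lost without control replicate 1 (0.133) or GN replicate 1 (0.188). EV+ exceeded GN by 0.79 (SE 0.144, adjusted p = 0.0893 by limma). That second call was lost without any one control, GN or EV+ library (adjusted p from 0.107 to 0.846) and in 2 of 8 other alternatives. Thus *Lpl* and *Lipg* stood in opposite order in control and GN.

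**Figure D5:**
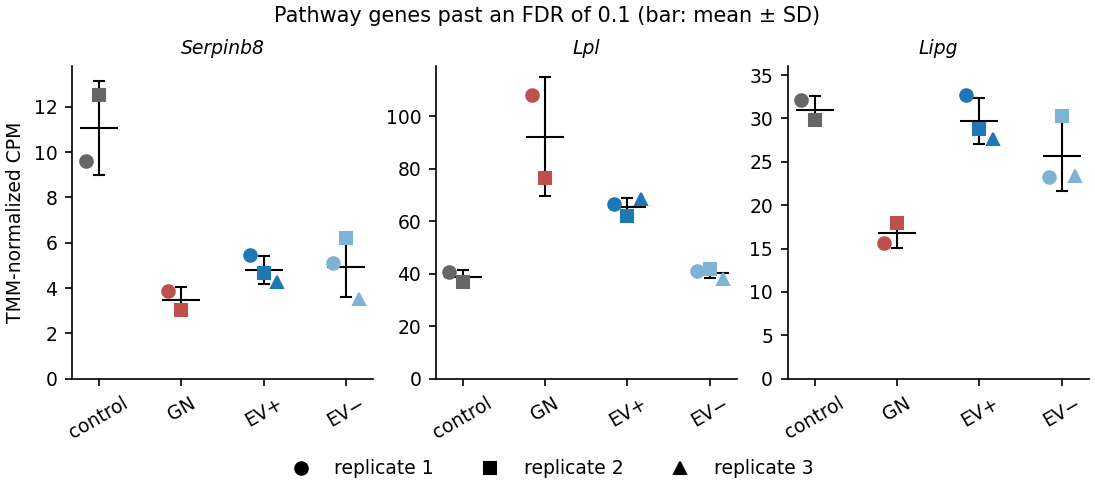
TMM-normalized CPM (vertical axes, from 0) of *Serpinb8*, *Lpl* and *Lipg* by group, with points for libraries, shapes for replicate numbers and bars for the mean ± SD. *Serpinb8* is highest in control (9.59 and 12.5 CPM), *Lpl* is highest in GN (108 and 76.3 CPM), and *Lipg* is lowest in GN (15.6 and 18 CPM).

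Among the lists, the 27 analysed substrates of convertases (of 42) had a median log2 difference of 0.09 between EV+ and EV−, with 23 higher in EV+, where 47.3% of all genes had a positive difference and their median was -0.01. Without EV+ replicate 2 alone, the median was 0.02, with 15 of 27 higher. In an alternative added after the values were seen, libraries of the same number were compared, and 14, 19 and 22 of the 27 were higher in EV+ in pairs 1, 2 and 3, against 49.1%, 48.3% and 50.1% of all genes. Leaving out pair 2, 20 of 27 were higher with a median of 0.056. Over all 68 pathway genes, 52 had a positive difference, 44 did without EV+ replicate 2 alone and 43 without EV− replicate 3 alone. Without pair 2 these were 51, and without pair 3 they were 49. Of the 11 analysed partners of site-1 protease (of 14), among them *Srebf1*, *Srebf2*, *Scap* and *Atf6*, 0 passed by limma in any comparison, with at most 3 at an unadjusted p under 0.05, in GN against control (where 10.4% of all genes were). In that comparison DESeq2 called *Scap* (-0.79), and 2 of the 11 had a positive difference. The 6 analysed secretory granule genes (of 19), the 3 further carboxypeptidases (of 13) and the 21 other peptide enzymes (of 27) also had 0 calls by limma in any comparison, with at most 2, 0 and 4 at an unadjusted p under 0.05, the 2 and the 4 in EV+ against control (where 15.0% of all genes were). DESeq2 called *Ctsl*, encoding cathepsin L, in GN (0.40) and EV+ (0.35) against control, and *Ece1*, encoding endothelin-converting enzyme, in EV− against GN (0.30). Of the convertase substrates it further called *Lrp1* (-0.42) and *Notch1* (-0.71) in GN against control, and *Lipg* (0.61) in EV− against GN.

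The 5 genes most like *Pcsk1* over the 10 libraries, among 7192 genes with a mean of at least 5 CPM, were *Smu1*, *Gaa*, *Ddah1*, *Ctsf* and *Hsd17b12*. Their Pearson correlations with *Pcsk1* on the log2(CPM + 1) scale were 0.97, 0.95, 0.95, 0.94 and 0.94. *Smu1* encodes a splicing factor, *Gaa* the lysosomal acid alpha-glucosidase, *Ddah1* an enzyme that breaks down methylated arginines, *Ctsf* cathepsin F and *Hsd17b12* an enzyme of fatty acid elongation. Their differences between EV+ and control were smaller than that of *Pcsk1*, and mean *Ddah1* was 183 CPM in both EV+ and EV−. The log2 difference between EV+ and control was 0.14 for *Smu1*, which ranged only from 173 to 195 CPM, 0.22 for *Ctsf*, 0.30 for *Ddah1*, 0.59 for *Gaa* and 0.73 for *Hsd17b12*, against 1.0 for *Pcsk1*. Within groups, the correlation of deviations with *Pcsk1* was 0.91 for *Ddah1*, 0.67 for *Smu1* and 0.54 for *Gaa*. It was only 0.18 for *Hsd17b12* and -0.06 for *Ctsf*, so the likeness of these last genes lay mostly between the groups.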

How the data were processed

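RNA of sorted splenic M2 macrophages was made into libraries with the SMART-Seq v4 kit. The authors aligned paired-end reads to rn6 with STAR (2.5.3), counted them on RefSeq genes with HTSeq (0.6.0, intersection-strict), removed genes with a maximum CPM under 1 and normalised by TMM in edgeR. The deposited table holds this normalised signal of 9003 genes. All values were whole multiples of 1 read (100%, tolerance 0.01 reads), and CPM recomputed from these reads matched the deposited ones to within 4e-05. Of the symbols, 18 had been turned into dates and were not named.

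limma (3.58.1, R 4.3.3) was fitted to log2(CPM + 1) of all 10 libraries with 4 groups and an intensity trend, at an FDR under 0.1. This fit was chosen because the values are normalised, and edgeR (4.0.16) and DESeq2 (1.42.0) on the recovered reads were alternatives. Procedures were tested on simulated data. The members, gene lists and rule for named genes (all members, pathway genes past the FDR, and the 5 genes most correlated with *Pcsk1*) were chosen with earlier results of these data known. EV+ and EV− libraries of the same number correlated in their deviations from group means with r of 0.309, 0.423 and 0.236, and the labels name no shared animal. The replicates are biological per the study's methods, replicate pairs differed beyond sampling noise (chi-square per degree of freedom of 13.4 or more), and 3 reads corresponded to at most 0.153 CPM. Floors and counting errors cover counting error only.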

Additional observations from a re-analysis of the deposited data

How the results depend on the processing

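The log2 differences of *Pcsk1* kept their sign in all alternatives and in all fits without a single library. With 2 or 3 libraries per group, small differences cannot be detected, and leaving out a control or GN library leaves a group of 1, which is assumed to vary like the others. Counts are given in the order GN, EV+ and EV− against control, EV+ and EV− against GN, and EV+ against EV−. Of 9003 genes, limma called 158, 327, 256, 11, 34 and 2. DESeq2 called 294, 540, 474, 41, 113 and 34, and limma without the intensity trend 60, 186, 94, 0, 6 and 0. With a pseudocount of 0.1, 4 genes were called between EV+ and EV−, and with only the compared groups in the fit, 155 were called between EV+ and control. With one library left out, the counts ranged over 34 to 214, 114 to 390, 95 to 388, 0 to 18, 7 to 42 and 0 to 5. The cause of these shifts was not tested.

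Of the pathway genes, 3, 2, 1, 1, 1 and 0 were called. DESeq2 called 7 in GN against control, 3 in EV− against GN and 1 between EV+ and EV−, which a pseudocount of 0.1 and a fit of only the compared groups also called. Without the intensity trend, or with only the compared groups, 0 were called between EV+ and GN. With one library left out, the counts ranged over 2 to 5, 0 to 3, 0 to 1, 0 to 1, 1 to 3 and 0 to 1, and those of the tested members stayed at 0.

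Blocking on the replicate number moved the counts of genes called to 30 and 53 for EV+ and EV− against GN and to 5 between EV+ and EV−, of which 1 was a pathway gene (*Lpl*). It made *Mbtps1* the 1 member called, between EV+ and control, and turned *Pcsk7* in EV+ against control to 0.062 and *Mbtps1* in EV− against GN to 0.054. The deviations of same-numbered EV+ and EV− libraries correlated at 0.236 to 0.423, against -0.238 to 0.109 for the other same-numbered libraries. The labels name no shared animal, so a pairing of EV+ and EV− is assumed from these correlations alone.

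Small differences of members changed sign. *Pcsk7* in EV− against control was -0.0013 with RLE size factors. With one library left out, *Pcsk7* ranged from -0.23 to 0.019 in GN, -0.15 to 0.094 in EV+ and -0.12 to 0.15 in EV− against control, from -0.0026 to 0.25 in EV− against GN and from -0.18 to 0.078 between EV+ and EV−. *Furin* ranged from -0.036 to 0.074 in GN against control, from -0.0024 to 0.17 in EV+ against GN and from -0.12 to 0.055 between EV+ and EV−. *Mbtps1* ranged from -0.040 to 0.16 in EV+ against GN, -0.13 to 0.10 in EV− against GN and -0.037 to 0.19 between EV+ and EV−. *Cpd* ranged from -0.054 to 0.28 in GN against control, -0.11 to 0.30 in EV− against GN and -0.048 to 0.36 between EV+ and EV−.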
